A study of Homo sapiens with 12 samples.

Results

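The 10 glycolytic enzymes HK1, HK2, PFKP, ALDOA, GAPDH, PGK1, PGAM1, ENO1, PKM and LDHA were followed from proliferating (Pro) to senescent (Sen) IMR90 cells. They were chosen by symbol, and all 10 were found among the 38716 gene symbols of the deposited tables. IMR90 is a primary fibroblast line from normal human fetal lung, and both states carry no genetic change or added gene in the labels. Sen cells had been passaged until they stopped dividing, which is replicative senescence, and Pro cells were still dividing, in the same culture medium. Each state had 3 lysates, each giving a Ribo-seq library of fragments shielded by ribosomes and a poly(A)-enriched RNA-seq library, 12 libraries in all. The labels name a pair of isolates of the line without tying libraries to them. The names of the Pro RNA-seq tables hold a tag that resembles a solvent's name, and no label says that these cultures received one.

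Glycolysis splits glucose into pyruvate in the cytosol, and lactate dehydrogenase then turns pyruvate into lactate. Hexokinase and phosphofructokinase commit the sugar to the pathway, aldolase cleaves it, and the enzymes from GAPDH to pyruvate kinase harvest ATP and NADH. Lactate dehydrogenase gives back the NAD+ that GAPDH consumes. Many of these genes are textbook targets of the hypoxia-inducible factors and of MYC, and dividing and senescent fibroblasts are both known to use glycolysis actively.

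The mRNA level of a gene was taken as its RNA-seq reads in the 5′ UTR, coding sequence (CDS) and 3′ UTR, and its ribosome-protected fragments (RPF) as its Ribo-seq reads in the CDS. Both are given in CPM, the depth-scaled read count of edgeR, with TMM factors. A gene was called changed where the quasi-likelihood test of edgeR gave a Benjamini-Hochberg adjusted p-value under 0.15 over all genes tested. RNA-seq libraries held from 7902301 to 14144345 reads. Ribo-seq libraries held from 583669 to 1718431 CDS reads, except Pro 1 with 54323 and Sen 2 with 54587, called shallow below. A floor of 3 reads stood at 55.2 CPM in Pro 1 and 55.0 CPM in Sen 2, and at no more than 5.14 CPM in the other Ribo-seq libraries. All 10 fibroblast markers, collagen genes among them, had at least 10 RNA-seq reads in every library, while SFTPC, CDH5 and CD3E, defining markers of alveolar epithelium, endothelium and T cells, were at 0 in RNA-seq. Of the 6 epithelial, 5 endothelial and 6 leukocyte markers, only KRT8 and KRT18, TEK, and CD68 reached 10 reads in every RNA-seq library. Summed mRNA levels in Pro and Sen were 292.5 to 311.1 and 237 to 260.3 CPM for epithelial markers, 54.4 to 62.0 and 93.6 to 105.4 CPM for endothelial markers, and 19.3 to 21.5 and 32.6 to 35.6 CPM for leukocyte markers. TEK and CD68 were called higher in both layers, KRT8 was called lower in both, and KRT18 was called lower in mRNA alone. Their part in the results for the enzymes was not tested. The summed mRNA level of the fibroblast markers ran from 31650 to 35610 CPM in Pro and from 30080 to 34820 CPM in Sen. The cell cycle inhibitors CDKN1A, CDKN2A and CDKN2B rose, and LMNB1, MKI67, HMGB1 and HMGB2 fell, in both layers.

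Senescent cells had higher mRNA levels of 8 of the 10 enzymes and lower levels of PFKP and ENO1. The rise was steepest for HK2, at 2.01-fold, and shallowest for PKM, at 1.24-fold. Ribosome footprints rose for the same 8 enzymes, by 1.39-fold for LDHA up to 2.46-fold for HK2, and for PFKP and ENO1 they were not called. Translational efficiency was called for none of the 10. Most genes were called in this comparison, since 73.5% of 12836 genes changed in mRNA, 36.5% higher and 37% lower in Sen. In RPF, 54.4% of 7521 genes changed, 27.5% higher and 26.9% lower, shares that stand beside 8 of 10 higher among the enzymes in each layer. With library totals in place of TMM factors the calls leaned lower, from 49.7% to 40.4% of them being higher in mRNA and from 50.5% to 39.1% in RPF. The median log2 fold change of the enzymes was 0.46 in mRNA, against -0.0058 over all genes tested, and 0.60 in RPF, against -0.0033. Library totals put the median of all genes at -0.11 in mRNA and -0.14 in RPF, and every call for the 10 enzymes held its direction with them. These are bulk libraries, in which a larger fraction of cells with an mRNA and more of it per cell cannot be told apart.

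The 10 genes together took 1.25%, 1.27% and 1.25% of the RNA-seq reads in Pro 1, 2 and 3, while Sen 1, 2 and 3 gave 1.49%, 1.56% and 1.40%. In Ribo-seq they took 2.27%, 1.98% and 1.95% of the CDS reads in Pro and 2.71%, 2.62% and 2.68% in Sen. The shares of the states did not overlap in either layer. The widest 95% Wilson intervals, which cover counting error only, belonged to the shallow libraries, at 2.146 to 2.397% in Pro 1 and 2.489 to 2.757% in Sen 2, and these did not meet. GAPDH alone made up 41.9 to 46.5% of these reads in RNA-seq and 35.9 to 42.0% in Ribo-seq, so the summed share follows GAPDH first.

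Hexokinase traps glucose in the cell as glucose-6-phosphate. HK1, the form found in most tissues (GRCh37 chr10:71029740-71161640, + strand), stood at 128, 130 and 141 CPM of mRNA in Pro 1, 2 and 3 and at 180, 161 and 173 CPM in Sen 1, 2 and 3. All Sen libraries were above all Pro libraries, and mRNA rose by 0.36 ± 0.07 on the log2 scale (SE, n = 3 per state, edgeR adjusted p = 0.00016). HK1 footprints were at 201, 151 and 187 CPM in Pro and 243, 239 and 312 CPM in Sen, again without overlap, a rise of 0.62 ± 0.17 (edgeR adjusted p = 0.0017). This call was lost by DESeq2, at 0.61 with an adjusted p of 0.17.

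HK2, the inducible form that binds mitochondria (chr2:75061254-75120486, + strand), had the largest change of the set. Its mRNA was at 27.2, 29.4 and 33.8 CPM in Pro and at 60.7, 59.0 and 62.9 CPM in Sen, a rise of 1.01 ± 0.09 (edgeR adjusted p = 1.4e-09). The 3 Sen values lay close together and well clear of Pro. HK2 footprints were few, at 101, 63.3 and 58.9 CPM in Pro and 132, 85.5 and 201 CPM in Sen. The groups overlapped, because shallow Pro 1 was above shallow Sen 2, and these values came from 6 and 5 reads. The fitted rise was 1.30 ± 0.20 (edgeR adjusted p = 1.3e-07). Without both shallow lysates it was 1.37.

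Phosphofructokinase adds the second phosphate and is the main point of control. PFKP, its platelet form (chr10:3108525-3179910, + strand), was at 300, 323 and 325 CPM of mRNA in Pro and at 272, 263 and 281 CPM in Sen. Every Sen library was below every Pro library, and mRNA fell by 0.22 on the log2 scale (SE 0.07, edgeR adjusted p = 0.0090). Its footprints did not follow, at 302, 607 and 621 CPM in Pro and 618, 376 and 628 CPM in Sen. The low value of each state was its shallow library, with 18 and 22 reads, and the deep libraries of both states fell between 607 and 628 CPM. The RPF difference of 0.03 had a 95% interval from -0.30 to 0.37 (edgeR adjusted p = 0.89).

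Aldolase splits the 6-carbon sugar. ALDOA (chr16:30075485-30081778, + strand) rose from 753, 788 and 803 CPM of mRNA in Pro to 1133, 1085 and 1177 CPM in Sen, by 0.53 ± 0.07 (edgeR adjusted p = 8.9e-07). Its footprints went from 1291, 1133 and 1126 CPM to 2125, 1778 and 1952 CPM, by 0.76 ± 0.17 (edgeR adjusted p = 0.00019). Neither layer overlapped between the states, and ALDOA had the second highest RPF fold change of the 10.

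GAPDH, which oxidises the triose and is a common reference transcript, lies at chr12:6643678-6647540 (+ strand). Its mRNA stood at 5221, 5354 and 5026 CPM in Pro and at 6981, 7513 and 6306 CPM in Sen, 1.33-fold higher (0.42 ± 0.08, edgeR adjusted p = 8.9e-05). Footprints were at 8417, 6979 and 6979 CPM in Pro and 11371, 10275 and 11564 CPM in Sen, 1.49-fold higher (0.57 ± 0.20, edgeR adjusted p = 0.014). The groups were separate in both layers, and with library totals the mRNA difference was 0.31.

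PGK1 makes the first ATP of the pathway (chrX:77166236-77384792, + strand). Its Pro libraries nearly coincided, at 457, 452 and 455 CPM of mRNA, and Sen stood at 828, 878 and 725 CPM. The rise of 0.83 ± 0.08 (edgeR adjusted p = 3.6e-09) was second to HK2 among the 10. PGK1 footprints were at 1123, 971 and 947 CPM in Pro and 1763, 1436 and 1679 CPM in Sen, without overlap and 0.74 ± 0.17 higher (edgeR adjusted p = 0.00026).

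PGAM1 moves the phosphate of 3-phosphoglycerate (chr10:99185948-99193201, + strand). Its mRNA was at 316, 325 and 328 CPM in Pro and 496, 508 and 487 CPM in Sen, and it rose by 0.62 ± 0.07 (edgeR adjusted p = 5.3e-08). Footprints were at 369, 285 and 273 CPM in Pro and 499, 308 and 441 CPM in Sen. Shallow Pro 1, with 22 reads, was above shallow Sen 2, with 18, and the deep libraries were separate. The RPF rise was 0.67 ± 0.16 (edgeR adjusted p = 0.00053).

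ENO1, the enolase of most tissues (chr1:8921059-8939249, - strand), went the other way. Its mRNA was at 1517, 1551 and 1571 CPM in Pro and at 1269, 1301 and 1167 CPM in Sen, all Sen values being lower, and it fell by 0.31 on the log2 scale (SE 0.07, edgeR adjusted p = 0.00067). Footprints were at 2448, 2523 and 2623 CPM in Pro and at 2468, 1932 and 2750 CPM in Sen. The highest and the lowest of these 6 values were both Sen libraries. The RPF difference of -0.07 had a 95% interval from -0.42 to 0.28 (edgeR adjusted p = 0.78).

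PKM encodes the pyruvate kinase of non-hepatic tissues, with spliced forms M1 and M2 that the tables do not separate (chr15:72491370-72524160, - strand). Its mRNA stood at 2288, 2305 and 2284 CPM in Pro and 2974, 2806 and 2729 CPM in Sen, and rose by 0.31 ± 0.07 (edgeR adjusted p = 0.00073). Footprints stood at 4510, 4605 and 4374 CPM in Pro and 7225, 5574 and 6913 CPM in Sen, 0.55 ± 0.19 higher (edgeR adjusted p = 0.013). No value of one state reached the other in either layer. Without Sen 1 the adjusted p of PKM footprints was 0.17 and the call was lost.

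LDHA encodes the muscle-type subunit of lactate dehydrogenase (chr11:18416107-18429972, + strand). Its mRNA was at 1028, 1014 and 1043 CPM in Pro and 1427, 1600 and 1354 CPM in Sen, and it rose by 0.51 ± 0.08 (edgeR adjusted p = 4.6e-06). Footprints were at 1895, 2146 and 2209 CPM in Pro and 3055, 2445 and 3218 CPM in Sen, 0.48 ± 0.18 higher (edgeR adjusted p = 0.022). LDHA also separated the states fully in both layers. Its RPF call was lost without Sen 1, at an adjusted p of 0.18, and without Sen 3, at 0.21.

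**Figure D1:**
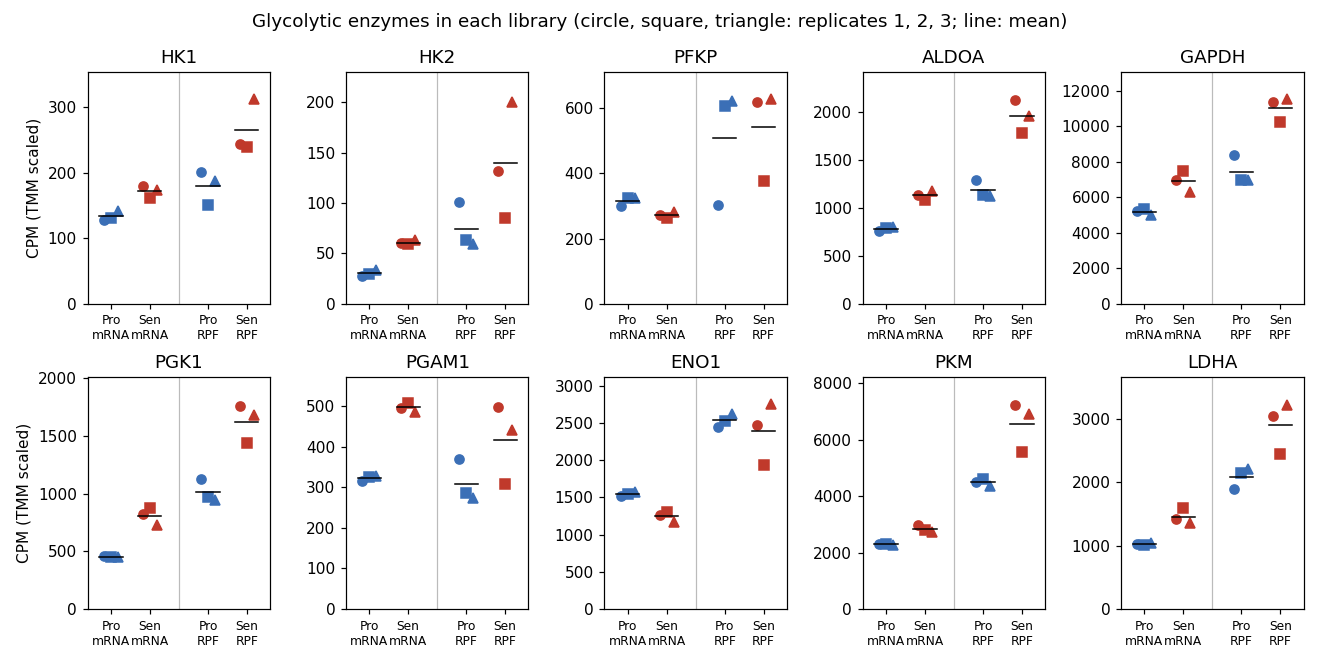
Level of each of the 10 enzymes in CPM (linear axis from 0, TMM scaled, its own scale per gene) in every library, with mRNA left and RPF right of the grey line, Pro in blue and Sen in red; circles, squares and triangles are replicates 1, 2 and 3 and the black line is the mean. In mRNA the states are separate for all 10 genes, with Sen below Pro for PFKP and ENO1, and in RPF they overlap for HK2, PFKP, PGAM1 and ENO1.

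Counted over the set, the 3 Pro and the 3 Sen libraries did not overlap for 10 of 10 enzymes in mRNA, where 67.7% of all genes tested were separate, and for 6 of 10 in RPF, where 32.6% were. Within the shallow pair, Sen 2 was below Pro 1 for HK2, PGAM1 and ENO1 in RPF, and above it for the other 7.

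**Figure D2:**
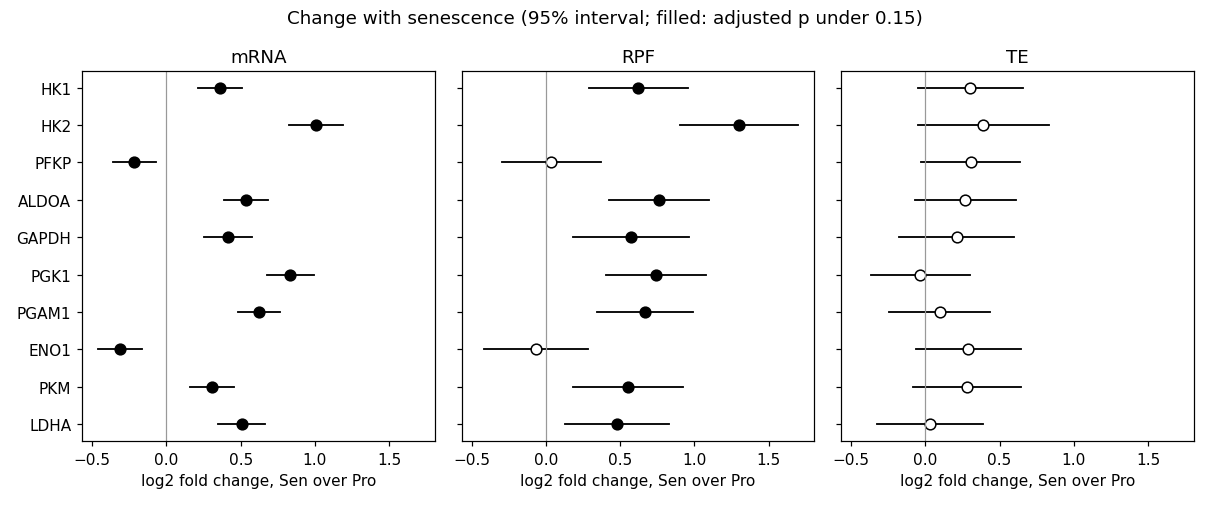
Log2 fold change of Sen over Pro for the 10 enzymes in mRNA, RPF and translational efficiency (TE), on one shared axis; points are fitted values, bars their 95% intervals, and filled points have an adjusted p under 0.15. All mRNA points are filled, 8 of 10 RPF points are filled and to the right of 0, and no TE point is filled.

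Translational efficiency (TE) was tested as the part of the RPF change that the mRNA change of the same lysates did not carry. Over all 7473 genes, 10% were called, 6.32% higher and 3.73% lower in Sen, and 62.8% of calls were higher, against 52.4% with RLE factors and 44.1% with library totals. None of the 10 enzymes was called by edgeR, none had an unadjusted p under 0.05, and DESeq2 called none. Fitted TE changes ran from -0.03 for PGK1 to 0.39 for HK2, and 9 of 10 were above 0. Their median was 0.27, beside 0.03 over all genes. The 95% intervals bound what could have been missed, from -0.37 to 0.30 for PGK1 and from -0.05 to 0.83 for HK2. Without the shallow lysates, 4 were called higher, ALDOA at 0.33, GAPDH at 0.38, ENO1 at 0.39 and PKM at 0.36, with edgeR adjusted p-values from 0.066 to 0.11 and 2 lysates left per state. In that setting 1183 of 9151 genes were called, 58.5% of them higher.

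ENO1 and PFKP were called lower in mRNA and not called in RPF, and neither was called in TE. The ratio of ENO1 footprints to mRNA, both in CPM, was 1.61, 1.63 and 1.67 in Pro and 1.95, 1.49 and 2.36 in Sen. Only the shallow Sen 2 lay below the Pro values. The fitted TE change of ENO1 was 0.29 ± 0.18 (edgeR adjusted p = 0.39). For PFKP the ratio was 1.01, 1.88 and 1.91 in Pro and 2.27, 1.43 and 2.24 in Sen, with the shallow library lowest in each state, and the fitted change was 0.31 ± 0.17 (edgeR adjusted p = 0.32). For PKM the ratio was 1.97, 1.997 and 1.91 in Pro and 2.43, 1.99 and 2.53 in Sen. The ratio of PGK1 was 2.46, 2.15 and 2.08 in Pro and 2.13, 1.64 and 2.32 in Sen. The states overlapped in each of these ratios.

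Enzymes can be compared with each other only per length, so CDS reads were also scaled per kb of CDS. On that scale, footprint levels in Pro ran from 27.0 ± 8.3 CPM per kb for HK2 to 7421 ± 826 for GAPDH (SD, n = 3). The order was GAPDH, PKM (2823 ± 73), LDHA (2091 ± 167), ENO1 (1944 ± 67), ALDOA (944 ± 75), PGK1 (810 ± 77), PGAM1 (405 ± 69), PFKP (217 ± 77), HK1 (65.4 ± 9.4) and HK2. LDHA and ENO1 overlapped, as did ALDOA and PGK1, and the other neighbours did not. The place of PGAM1 is uncertain in both states and layers, because its reads are shared with its copy PGAM4. Parts of the CDS of other enzymes also occur in other genes, to unlike extents as given below. The effect on this order and on isozyme shares was not tested. PGAM4 held a further 379 ± 73 CPM per kb of footprints in Pro and 172 ± 4 CPM per kb of mRNA. The enzymes of the upper, committing steps, HK1, HK2 and PFKP, had the fewest footprints per length. In Sen the order of footprints was the same, and the gap between LDHA at 2917 ± 409 and ENO1 at 1831 ± 319 CPM per kb opened to 1.59-fold without overlap. ENO1 then overlapped ALDOA at 1556 ± 138. In mRNA, ENO1 stood above LDHA in Pro, at 912 ± 9 and 750 ± 12 CPM per kb of CDS, and below it in Sen, at 744 ± 37 and 1074 ± 94, in both cases without overlap.

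Several steps are shared by isozymes, and the mix within a step was read from the same per-kb levels, as a description without a test. Of the 5 mixes read, that of lactate dehydrogenase differed most between the states. LDHB, the heart-type subunit, fell in mRNA by 1.14 on the log2 scale (SE 0.08, edgeR adjusted p = 2.7e-11) and in RPF by 0.91 (SE 0.16, edgeR adjusted p = 4.2e-06). LDHA made up 62.2%, 62.1% and 63.2% of LDHA plus LDHB mRNA per kb in Pro and 83.5%, 83.7% and 83.9% in Sen. In footprints it made up 67.8%, 71.2% and 70.6% in Pro and 87.1%, 84.2% and 86.2% in Sen. The states were far apart in both layers, by 21.2 and 16.0 percentage points on average.

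At the hexokinase step HK2 took 11.7%, 10.9% and 11.7% of HK1 plus HK2 mRNA per kb in Pro and 17.2%, 16.8% and 18.1% in Sen. Its footprint share was larger and overlapped, at 33.3%, 29.5% and 23.9% in Pro and 35.2%, 26.3% and 39.1% in Sen. At phosphofructokinase, PFKP made up 63.2 ± 0.6% of the PFKP, PFKL and PFKM mRNA per kb in Pro and 57.0 ± 1.1% in Sen, without overlap (SD, n = 3). In footprints its share overlapped, at 59.9%, 68.2% and 68.0% in Pro and 61.7%, 49.9% and 55.8% in Sen. PFKL, the liver form, rose by 0.23 ± 0.07 in mRNA (edgeR adjusted p = 0.0091), by 0.74 ± 0.17 in RPF (edgeR adjusted p = 0.00023) and by 0.52 ± 0.18 in TE (edgeR adjusted p = 0.083). ENO1 made up 97.7 ± 0.2% of ENO1 plus ENO2 mRNA per kb in Pro and 95.5 ± 0.3% in Sen. ENO1 mRNA fell, as given above, and ENO2, the neuronal form, rose by 0.86 ± 0.08 (edgeR adjusted p = 9.9e-09). In footprints the ENO1 share was 95.4%, 96.3% and 96.5% in Pro and 94.2%, 90.4% and 94.0% in Sen, without overlap. ALDOA stayed above 94% of ALDOA plus ALDOC in every library and layer, and its states overlapped.

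**Figure D3:**
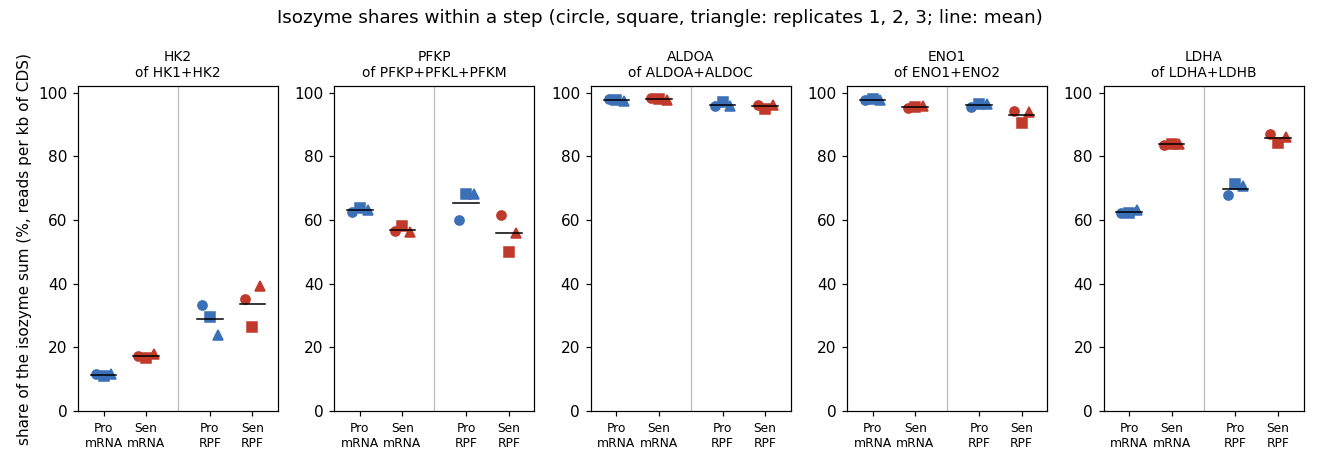
Share of 1 isozyme in the summed reads per kb of CDS of the isozymes of its step, in percent (axis from 0), for mRNA and RPF in every library; Pro is blue, Sen is red, circles, squares and triangles are replicates 1, 2 and 3, and black lines are means. LDHA rises from about 62% to about 84% of the LDHA plus LDHB mRNA, while HK2, PFKP and ENO1 shift by less and ALDOA overlaps between the states.

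The members differ in how far their reads can be told from those of other genes. Of the 30-base windows along a CDS, 100% in PGAM1, 66% in GAPDH, 49.4% in LDHA, 35.6% in HK2 and 30.6% in PGK1 occur unchanged in a transcript of another gene, such as the pseudogenes GAPDHP1, LDHAP4 and HK2P1. The share was 21.7% in PKM, 18.9% in ENO1, 8.82% in ALDOA and below 1% in PFKP and HK1. The tables hold fractions of reads, and PGAM4, a retrogene copy of PGAM1, received from 47.4% to 48.8% of the CDS reads of the pair in every library of both kinds. PGAM1 levels are therefore uncertain as levels. Its steady split with PGAM4 cannot show which of the 2 genes changed, since every PGAM1 window also occurs elsewhere. PGAM4 itself was 0.62 higher in mRNA and 0.696 higher in RPF, and most of its reads cannot be told from those of PGAM1. PGK2, a testis form and close copy of PGK1 that shares 1.88% of its windows with it, was at 0.83 in mRNA and 0.89 in RPF, and whether reads of PGK1 entered its counts was not tested.

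Footprints of the 10 enzymes lay almost entirely in the CDS, from 98.9% to 99.9% of their reads in the 3 regions in each state. Over all genes the CDS held 94.9% of such reads in Pro and 86.3% in Sen, and in single libraries it went down to 77.5% in Pro 1 and 40.6% in Sen 2. RNA-seq reads spread by gene, with 46.1% in the CDS for HK2 and 93.9% for PFKP in Pro. Counting only CDS reads in RNA-seq left all 10 mRNA calls in place.

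The promoters were searched for ACGTG, the core of the hypoxia response element, on both strands of windows reaching from 250 bases before to 50 bases after each RefSeq transcript start (GRCh38.p14). CACGTG, the E-box that MYC and USF factors bind, contains it on both strands and was counted as 1 place. The motif stood in 9 of 23 windows of the 10 genes, or 39.1%, and in 21.4% of all 35116 windows. By gene, 6 of 10 had it in some window, against 24.9% of 27305 genes. The 10 genes had 23 windows, some of them overlapping, while the 27305 genes had 35116. A gene with more windows has more places for a match, so these shares by gene are not like for like. ENO1, HK1, PGAM1 and PKM had no match in these windows. The following places, 1 for each gene with a match, show what the searched letters sit in, with the matching bases in capitals, read on the + strand.
HK2, chr2:74835009-74835038: ttccggcgagagCACGTGgagagaatcgtg
PFKP, chr10:3069038-3069066: ccacgagcgcctACGTGatgcccggcccg
ALDOA, chr16:30064373-30064402: tggcagggaggcCACGTGatccgagtcccc
GAPDH, chr12:6535171-6535200: gctctgcggggtCACGTGtcgcagaggagc
PGK1, chrX:78104034-78104062: gcggcgtgccggACGTGacaaacggaagc
LDHA, chr11:18394464-18394493: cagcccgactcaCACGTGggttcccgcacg
At these 6 places, HK2, ALDOA, GAPDH and LDHA hold the E-box form and PFKP and PGK1 the shorter core. Elsewhere in their windows, HK2, ALDOA and LDHA also hold the shorter core outside an E-box. Of the genes with a match, 5 rose in mRNA and PFKP fell. Of those without one, HK1, PGAM1 and PKM rose and ENO1 fell. A match is a description of the sequence, and binding was not measured in these libraries.

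Genes around the 10 enzymes were read from the same fits. Over all genes tested, 36.5% rose and 37% fell in mRNA, and 27.5% rose and 26.9% fell in RPF. Of 20 other glycolytic isozymes and enzymes, 12 were tested in mRNA, of which 9 rose and 1 fell, and 14 in RPF, of which 12 rose and 1 fell. Both counts of risers include PGAM4 and PGK2, whose reads may not be separate from those of PGAM1 and PGK1, as described above. LDHB was the one that fell. BPGM, which makes 2,3-bisphosphoglycerate, rose by 1.76 ± 0.09 in mRNA (edgeR adjusted p = 3.6e-13), from a mean of 30.8 to 103.5 CPM. The largest mRNA fold change was that of PGAM2, the muscle mutase, at 2.32 ± 0.38 (edgeR adjusted p = 1.6e-05), at a level of only 0.42 CPM in Pro and 2.05 CPM in Sen. GPI and TPI1 complete the pathway's steps. GPI, which makes fructose-6-phosphate, was not called in mRNA at 0.09 (edgeR adjusted p = 0.23), while its footprints rose by 0.60 ± 0.16 and its TE by 0.56 ± 0.16 (edgeR adjusted p = 0.027). TPI1, the triose isomerase, rose by 0.36 ± 0.08 in mRNA and 0.39 ± 0.17 in RPF (edgeR adjusted p = 0.055), and 67.1% of its windows occur in other transcripts. LDHC, PKLR and ENO3 were called higher in RPF with mean mRNA levels below 1 CPM, so these calls are uncertain.

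Carriers bring glucose in and lactate out, and their median log2 fold change was 0.85 in mRNA and 0.92 in RPF. Of 11, 10 were tested in mRNA, 8 rose and 2 fell, and 8 were tested in RPF, 6 rose and 2 fell. SLC2A1, the glucose carrier GLUT1, rose by 1.87 ± 0.07 in mRNA (edgeR adjusted p = 3.8e-15), from 190.9 to 699.0 CPM on average, and by 2.19 ± 0.18 in RPF. SLC16A3, the lactate exporter MCT4, rose by 1.37 ± 0.08 in mRNA, 1.88 ± 0.18 in RPF and 0.56 ± 0.17 in TE (edgeR adjusted p = 0.053 for TE). SLC16A7, a lactate carrier of high affinity, fell by 0.73 on the log2 scale in mRNA and by 1.34 in RPF. Fructose-2,6-bisphosphate is the strongest activator of phosphofructokinase, and of the 5 genes that set it, 4 were tested in mRNA and 3 rose. The 3 include TIGAR, which breaks it down, so the count has no single direction. TIGAR rose by 0.64 ± 0.08 in mRNA and was not called in RPF at 0.31 (edgeR adjusted p = 0.27). PFKFB4 rose by 1.14 ± 0.12 and was too low in RPF to be tested. PFKFB3, the form with the highest kinase activity, rose by 0.60 ± 0.08 in mRNA, 1.27 ± 0.23 in RPF and 0.72 ± 0.24 in TE (edgeR adjusted p = 0.077).

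**Figure D4:**
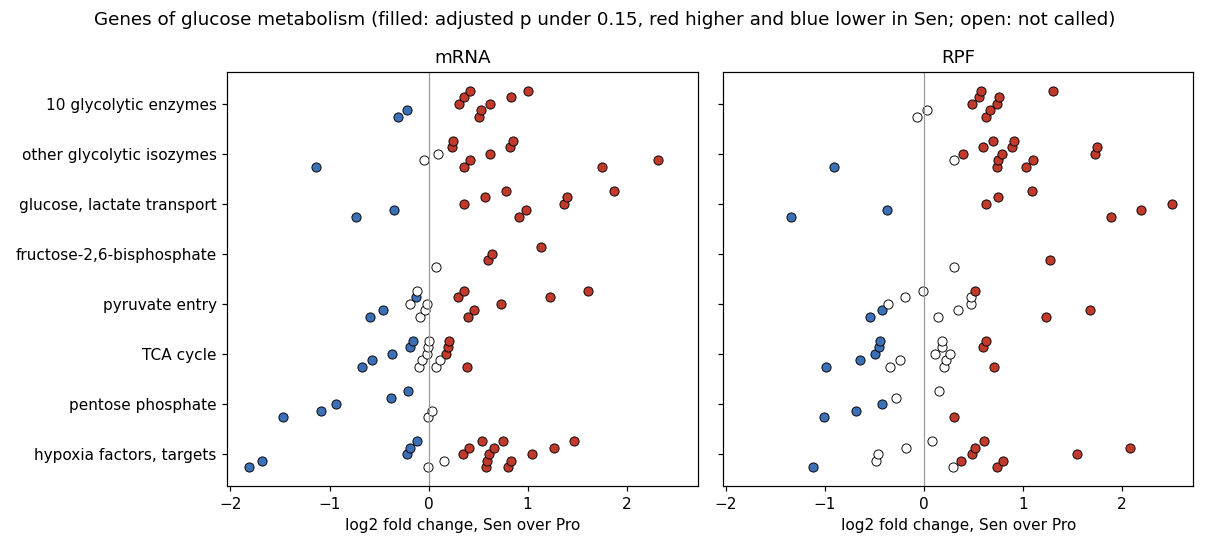
Log2 fold change of Sen over Pro for every tested gene of 8 lists of glucose metabolism and hypoxia, in mRNA and RPF, spread vertically only for legibility; red and blue points are higher and lower in Sen at an adjusted p under 0.15 and open points are not called. The glycolytic and transport genes lie mostly to the right of 0, the pentose phosphate genes at or left of it in mRNA, and the tricarboxylic acid (TCA) cycle on both sides.

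In the pentose phosphate pathway, which draws glucose-6-phosphate away to make NADPH and ribose, 5 of 7 genes fell in mRNA and none rose, and in RPF 3 of 6 fell and 1 rose. Of 15 genes of pyruvate entry into mitochondria, 7 rose and 3 fell in mRNA, or 7 and 6 with library totals. Of 12 tested in RPF, 3 rose and 2 fell. Kinases that block pyruvate dehydrogenase were among both risers and fallers in mRNA, so these counts have no single direction. The kinase PDK4, which blocks pyruvate dehydrogenase, rose by 1.61 ± 0.16 in mRNA and by 1.67 ± 0.34 in RPF. PDK3 fell by 0.59 in mRNA (edgeR adjusted p = 0.056). In the TCA cycle 4 of 16 genes rose and 5 fell in mRNA, and with library totals 1 rose and 8 fell. FH, fumarase, fell by 0.67 in mRNA and 0.99 in RPF, and OGDH rose by 0.38 and 0.70. PCK2, the mitochondrial PEP carboxykinase, fell by 1.702 in mRNA and by 1.596 in RPF, while G6PC3 rose by 0.49 and 0.56. The other 4 gluconeogenic genes were too low to be tested.

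Of 21 hypoxia factors and targets outside glycolysis, 20 were tested in mRNA, 13 rose and 5 fell. Of 14 tested in RPF, 8 rose and 1 fell. Genes that restrain the hypoxia-inducible factors were among the risers in both layers and the fallers in mRNA. These counts therefore have no single direction. With library totals the RPF count became 5 higher and 4 lower. P4HA2, a collagen prolyl hydroxylase, rose by 1.47 ± 0.08 in mRNA and by 1.54 ± 0.17 in RPF. CA12, a carbonic anhydrase, fell by 1.82 in mRNA. EPAS1, the factor HIF-2α, rose by 0.83 ± 0.08 in mRNA, 2.08 ± 0.18 in RPF, and its TE rose 2.33-fold (edgeR adjusted p = 1.9e-05). HIF1A rose by 0.35 ± 0.08 in mRNA, was at -0.18 in RPF (edgeR adjusted p = 0.40) and fell in TE by 0.45 (edgeR adjusted p = 0.11). In the MYC network of 7 genes, 2 rose and 3 fell in mRNA, and of 4 tested in RPF 1 rose and 2 fell. MYC fell by 0.64 in mRNA and by 0.43 in RPF, MGA fell by 0.86 and 1.53, and MXD4, a repressor that pairs with MAX, rose by 0.49 in mRNA.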

How the data were processed

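Ribo-seq and RNA-seq libraries were grouped by state and replicate number from the sample labels. The deposited values are expected counts per gene symbol and region as the authors assigned them, unscaled, and from 12.1% to 22.7% of nonzero Ribo-seq CDS values were not whole. The submitters' processing notes name cutadapt 1.18, Bowtie 1.0.1, SAMtools 1.8 and DESeq2 1.22.2. Genome build, annotation, strand rule and the treatment of reads with several placements are not given in the sources used here. Plain counts had been assumed, so values were rounded to whole numbers after summing regions.

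Genes were tested in edgeR 4.0.16 (R 4.3.3) with filterByExpr, TMM factors within library type and the quasi-likelihood test, two-sided, at an adjusted p under 0.15, the threshold of the published methods. TE was the interaction of library type with state over 12 libraries, with the lysate as a block, since both libraries of a lysate come from 1 harvest. The deviations of the library pairs from their group means correlated at r from -0.04 to 0.05. DESeq2 1.42.0, other scalings and filters and left-out lysates were alternatives. The mRNA and RPF fits were run on simulated counts with known changes and the same spread between replicates for every gene. The TE fit was only compared there with the difference of those fits. That run does not show how many calls in the real libraries are right. Positions and CDS lengths come from GENCODE v44 lifted to GRCh37, promoters from RefSeq, matched for all 10 genes. Replicates are independent cultures per the labels. No 2 libraries were duplicates. The members, gene lists and tests were chosen with earlier results of these data known. All 10 members are named, and from each other list the called gene with the largest mRNA change in each direction, except 1 gene that is not reported here. BPGM, PFKFB3, TIGAR, SLC16A3, EPAS1, HIF1A, MYC, PFKL, PGAM4, PGK2, LDHC, PKLR and ENO3 were named after their values were seen.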

Additional observations from a re-analysis of the deposited data

How the results depend on the processing

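All 10 mRNA changes of the enzymes kept direction and call in each of 14 alternatives, 140 values in all. In RPF, 118 of 129 values kept both, 4 lost the call and 7 changed sign. In translational efficiency (TE), 132 of 149 kept both, 4 gained a call and 13 changed sign. The number of enzymes called in RPF was 8, and 6 to 8 with 1 lysate left out, 7 by DESeq2 (HK1 lost, adjusted p = 0.17) and 7 of 9 where every library had to hold at least 10 counts, a filter that dropped HK2. In TE it was 0, and 4 without the lysates Pro 1 and Sen 2. Signs changed only for values that were not called. RPF of PFKP was -0.10 with library totals and at the filter of 10 counts, and -0.11 to 0.17 with 1 lysate left out, below 0 without Pro 1, Sen 1 or Sen 3. RPF of ENO1 was 0.015 without both shallow lysates and -0.18 to 0.053 with 1 left out, above 0 without Sen 2. TE of LDHA was -0.024 with library totals, -0.028 when 1 read sufficed, -0.046 with the filter at 10 counts, -0.013 by DESeq2, and -0.13 to 0.16 with 1 lysate left out, below 0 without Pro 1, Sen 1 or Sen 3. TE of PGAM1 was -0.075 by DESeq2, -0.081 with the replicate block and -0.082 to 0.16 with 1 left out, below 0 without Pro 3 or Sen 1. TE of PGK1 was 0.085 without both shallow lysates and -0.18 to 0.058 with 1 left out, above 0 without Sen 2. The cause was not tested.

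Whether the replicate numbers pair the states could not be told. Same-numbered Pro and Sen libraries deviated together at r from -0.09 to 0.10 in mRNA and from 0.01 to 0.02 in RPF. The Ribo-seq and RNA-seq libraries of 1 lysate, a known pair, also gave only r from -0.04 to 0.05. With the replicate block, 10 enzymes were called in mRNA, 8 in RPF and 0 in TE. Over all genes, RPF calls numbered 4088 of 7521 tested, and 2336 with the block, 1164 by DESeq2, 610 of 828 at the filter of 10 counts and 2681 without Sen 1. TE calls numbered 751 of 7473 tested, and 144 with the block, 28 by DESeq2, 428 of 13538 without the low-count filter, 236 of 828 at the filter of 10 counts, 1339 without the lysate block, 1183 of 9151 without both shallow lysates and 150 to 1147 without 1 lysate. HK2 had 6 and 5 footprints in the shallow libraries Pro 1 and Sen 2.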
